A study of Mus musculus with 15 samples.

Results

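The genes described here encode 35 plasma proteins of blood coagulation and complement, 21 and 14 respectively. They were taken from a list of gene names that was chosen with earlier results of these data known. Each probe was matched to its gene through the RefSeq accession in the array annotation, and all 35 were among the 15617 genes tested. Complement component 5 is listed under its mouse name, Hc. Coagulation is a cascade in which proteases activate one another until thrombin cuts fibrinogen into fibrin, while anticoagulants and fibrinolytic enzymes hold the clot in check. Complement is a second cascade, started by antibody, by sugar-binding lectins or by slow self-activation of C3, that ends in a pore assembled from C5 to C9. Hepatocytes secrete most of these proteins into plasma, but only their transcripts were measured here, not secretion.

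The study compared a new liver-like tissue grown in the kidney with ordinary liver and kidney by microarray. All mice were female FVB/N. Recipients were wild type, 7 to 9 weeks old at the start, and received 2 intraperitoneal doses of 70 mg/kg monocrotaline, a plant toxin that injures liver sinusoids and blocks division of resident hepatocytes, with 2 weeks between doses. After a further 2 weeks, 1000000 hepatocytes from donors of 8 to 20 weeks carrying a human α1-antitrypsin (hA1AT) transgene were placed beneath the renal capsule. At 250 to 300 days, when recipients were 48 to 55 weeks old, 3 tissues were sampled: the neo-liver dissected out of the kidney, the injured host liver and the host kidney, with 4 arrays each. Control liver, on 3 arrays, came from normal mice of 20 weeks. Age, toxin and transplantation thus cannot be told apart in any comparison with it. Host liver, host kidney and neo-liver share monocrotaline and carry replicate numbers 1 to 4, which behaved as mouse numbers, and they are called mice 1 to 4 here.

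A level below is log2 of a probe's processed signal minus the 75th percentile of its array, so it can be negative and is compared between tissues for the same gene only. Differences are on the log2 scale, with the standard error of a limma fit over all genes and arrays and a p adjusted over all 15617 genes. Every member was well above background on each liver and neo-liver array. The 75th percentile signal ranged from 287 to 874 over the 15 arrays, and no spot was saturated. The labelled tissues matched their markers in part. Of 31 kidney epithelium markers, 30 were higher in neo-liver than in control liver, with summed linear levels of 595 to 1626 in neo-liver, 10.7 to 12.6 in control liver, 11.2 to 35.1 in host liver and 2697 to 3832 in host kidney. In control liver 19 of these 31 markers, Umod and Slc12a1 among them, were not above background on any array. Measured with 30 of these markers, neo-livers 1 to 4 held 18.4%, 50.7%, 17.9% and 36.0% of the host kidney level. Of 10 hepatocyte markers, 6 were lower in neo-liver than in control liver and none higher, with a median difference of -0.59. In these bulk samples fewer hepatocytes and less RNA per hepatocyte cannot be told apart.

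Across the 4 tissues the members followed much the same order. In 30 of 35 the mean was highest in host liver, then control liver, then neo-liver, and lowest in host kidney. Mean levels of F9, Klkb1 and C8g were highest in control liver. F11 and C8a departed in the other way, with neo-liver above control liver, and for C8a host kidney, at a mean of 2.94, was level with control liver, at 2.85. The step from control to host liver was within the spread of the arrays for most members, as the counts below show.

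**Figure D1:**
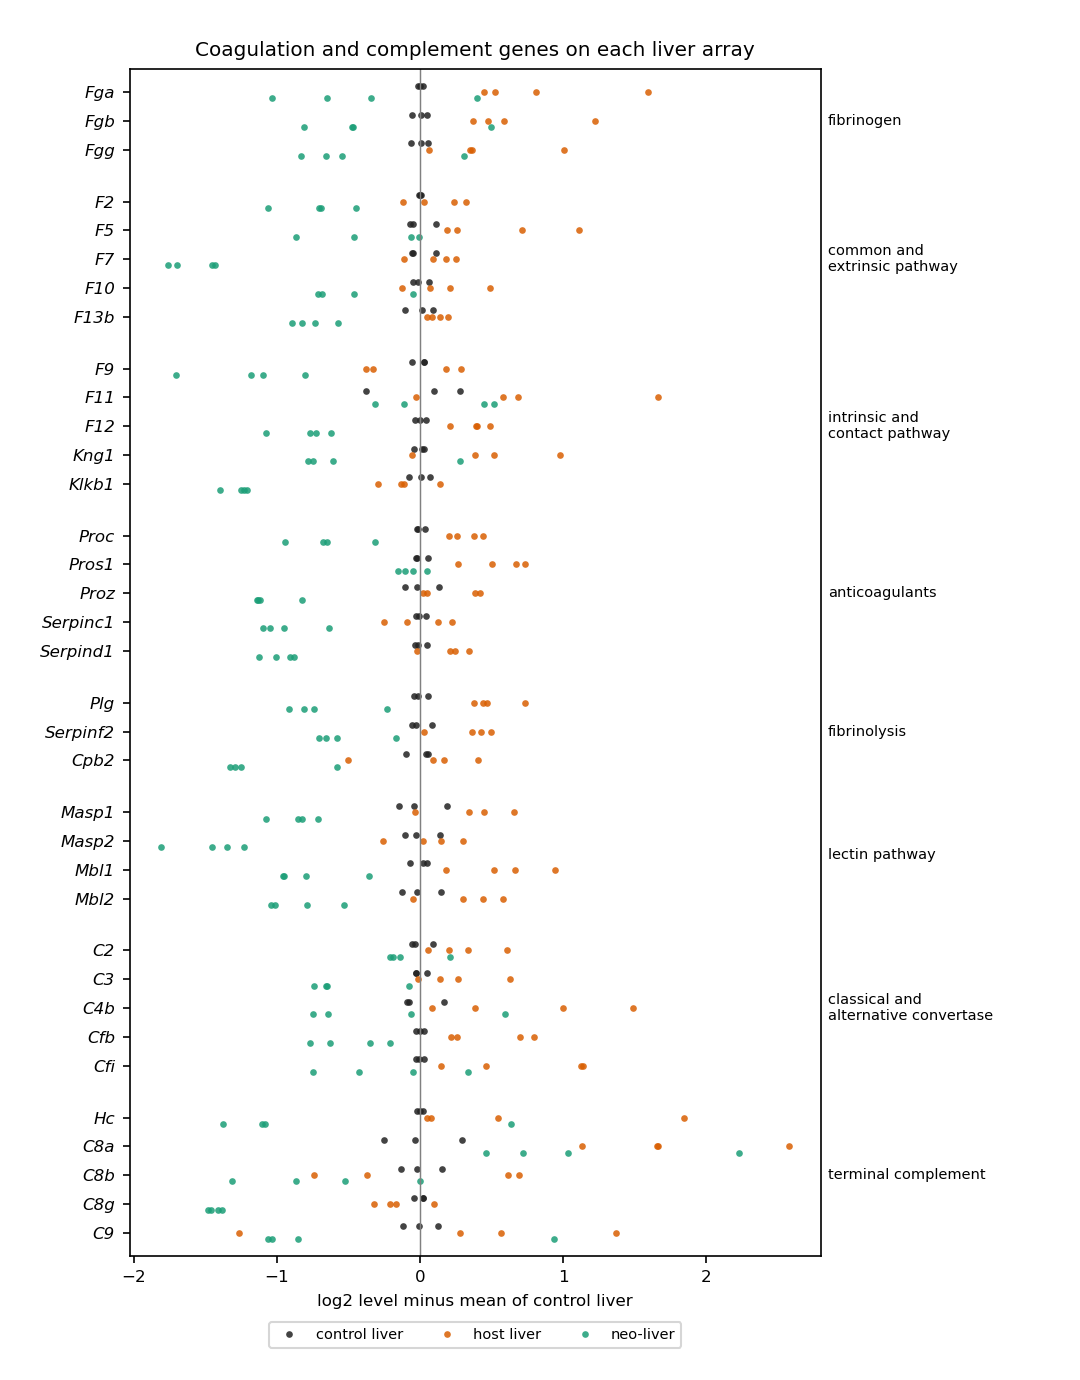
Level of each of the 35 genes on each liver array, as the log2 level minus the mean of control liver, with genes in rows grouped by role and points for 3 control liver, 4 host liver and 4 neo-liver arrays. Most neo-liver points lie to the left of 0 and most host liver points to the right, while C8a lies to the right in both.

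Against control liver, neo-liver had lower transcript levels for 18 of the 35 genes and a higher level for 1, C8a. Of all genes tested, 29.8% were called lower and 20.4% higher, and 50.2% were called in either direction. The median difference was -0.67 over the members and -0.16 over all genes. Coagulation genes gave 12 lower and 0 higher of 21, with a median of -0.68, and complement genes 6 lower and 1 higher of 14, with a median of -0.60. Neo-liver and control liver arrays did not overlap for 22 members, against 57.1% of all genes. These 2 groups were run on the same slide. The number of falls changed with the scaling and with subtraction of a kidney share. It was 6 after quantile normalization, 9 after normexp background correction and 4 when the kidney share measured on each array was subtracted. Here and below, that subtraction includes scaling the remaining signal up, which raises the level of genes scarce in kidney. With it the members' median was -0.17 and that of all genes -0.27. After quantile normalization these medians were -0.11 and -0.02, and after normexp correction -0.12 and -0.02. F7, F9, Klkb1 and C8g were called lower under each of the 19 alternatives tried.

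Against the host's own injured liver, 31 of the 35 genes were lower in neo-liver and none higher, where 31.5% of all genes were called lower, 17.1% higher and 48.6% in either direction. The members' median difference was -0.97 and that of all genes -0.21. It was -0.83 for the 10 hepatocyte markers and -1.01 for a list of 10 acute phase genes. F11, C8a, C8b and C9 were the members not called. Compared within mice, 34 of the 35 genes were lower in neo-liver than in host liver in 4 of 4 mice, C9 being the exception with 3 of 4. The median member differed by -0.89, -1.21, -0.79 and -1.15 in mice 1 to 4. Arrays of the 2 tissues did not overlap for 23 members, against 36.5% of all genes. Neo-liver arrays were on slide 2 and host liver arrays on slides 3 and 4, so slide and tissue cannot be told apart here. With mouse as a block, 28 members were lower, Plg, C2 and C3 no longer being called. The count was 9 after quantile normalization, 12 after normexp correction and 11 with the kidney share subtracted. The members' medians were then -0.38, -0.39 and -0.53, and those of all genes -0.07, -0.05 and -0.32.

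Host liver itself differed from control liver in few members. C8a, Mbl1, Pros1 and Cfb were higher and none lower, 4 of 35, where 13.4% of all genes were called higher, 11.2% lower and 24.7% in either direction. The median difference was 0.32 over the members and 0.08 over all genes, and 32 of the 35 differences were positive. Host liver and control liver did not overlap for 13 members, against 37.5% of all genes. Centring each array on its median in place of the 75th percentile raised the median of all genes to 0.22 and the count of higher members to 11. Host liver arrays were on slides 3 and 4, which held no other tissue, so slide and tissue cannot be told apart in this comparison either. With slide as a random block 2 members, C8a and Pros1, were called. Both neo-liver comparisons and this one share arrays, so they are given side by side and not as separate evidence.

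**Figure D2:**
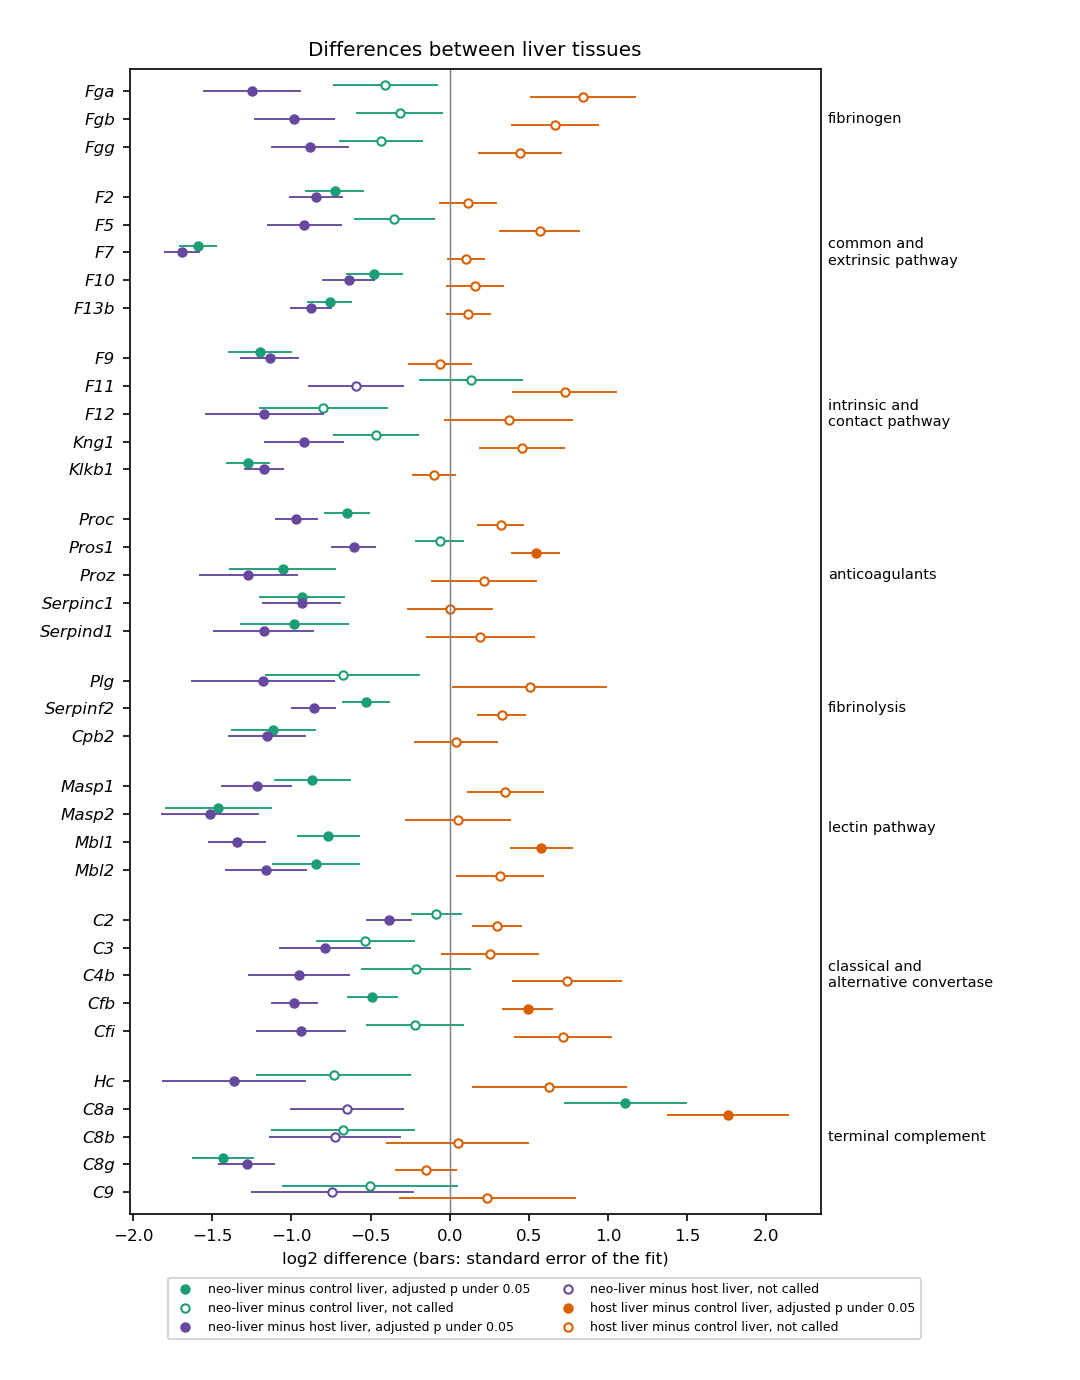
Log2 differences with standard errors for 3 comparisons among liver tissues, with genes in rows grouped by role, filled circles for adjusted p under 0.05 and open circles for differences not called. Neo-liver minus host liver is negative for all 35 genes, and host liver minus control liver passes the test for C8a, Mbl1, Pros1 and Cfb.

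Fibrinogen, the substrate of thrombin, is built from 3 chains encoded by Fga, Fgb and Fgg, which lie side by side on chromosome 3 and are known acute phase genes of liver. Fgb read 9.52, 9.63 and 9.58 in control livers, 10.80, 10.05, 9.95 and 10.17 in host livers of mice 1 to 4 and 10.07, 8.77, 9.11 and 9.10 in their neo-livers. The neo-liver of mouse 1 thus lay above the control livers and the other 3 below them, and every neo-liver was below the host liver of its own mouse. Fga showed the same layout, at 6.03, 4.60, 4.98 and 5.29 in neo-livers against 5.62 to 5.65 in control livers and 6.07 to 7.22 in host livers. Fgg read 9.67 in the neo-liver of mouse 1 and 8.54 to 8.82 in the other 3, against 9.31 to 9.43 in control livers. None of the 3 chains passed the test against control liver, at -0.41 ± 0.33 for Fga, -0.32 ± 0.28 for Fgb and -0.43 ± 0.26 for Fgg (SE). Without neo-liver 1 the fit called Fgb and Fgg lower, at -0.59 and -0.68. All 3 chains fell against host liver, by -1.25 ± 0.31 for Fga (adjusted p = 0.0050, limma), -0.98 ± 0.26 for Fgb (adjusted p = 0.0068) and -0.88 ± 0.25 for Fgg (adjusted p = 0.0098). Of all genes, 31.5% were called lower in that comparison.

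Promoters of the fibrinogen chains are printed because these 3 genes had like layouts over the arrays, and that of Klkb1 because it was lower in neo-liver under each alternative with little difference between mice. Each run is the 250 bases before the RefSeq start of the gene (GRCm38.p6), read 5′ to 3′ on the gene's strand. Capitals mark exact matches, on either strand, to the STAT motif TTCNNNGAA, the HNF1 motif GTTAATNAT or its first part GTTAAT, which lies within the longer one. The windows are chr3:83025903-83026152 on the plus strand for Fga, chr3:83049864-83050113 on the minus strand for Fgb, chr3:83007474-83007723 on the plus strand for Fgg and chr8:45294836-45295085 on the minus strand for Klkb1.
Fga: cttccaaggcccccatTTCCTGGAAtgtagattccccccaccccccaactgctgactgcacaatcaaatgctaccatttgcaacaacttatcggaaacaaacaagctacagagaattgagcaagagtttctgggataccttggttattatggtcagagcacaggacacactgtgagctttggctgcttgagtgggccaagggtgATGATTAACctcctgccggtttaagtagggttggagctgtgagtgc
Fgb: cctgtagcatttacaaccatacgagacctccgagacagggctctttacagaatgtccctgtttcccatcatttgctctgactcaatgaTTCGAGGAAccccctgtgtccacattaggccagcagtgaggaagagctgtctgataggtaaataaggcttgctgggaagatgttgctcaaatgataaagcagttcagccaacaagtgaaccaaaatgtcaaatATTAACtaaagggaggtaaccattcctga
Fgg: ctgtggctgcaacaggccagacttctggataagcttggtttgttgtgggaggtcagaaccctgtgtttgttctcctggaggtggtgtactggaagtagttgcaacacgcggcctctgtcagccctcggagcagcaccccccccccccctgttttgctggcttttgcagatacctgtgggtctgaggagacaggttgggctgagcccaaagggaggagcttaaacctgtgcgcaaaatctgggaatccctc
Klkb1: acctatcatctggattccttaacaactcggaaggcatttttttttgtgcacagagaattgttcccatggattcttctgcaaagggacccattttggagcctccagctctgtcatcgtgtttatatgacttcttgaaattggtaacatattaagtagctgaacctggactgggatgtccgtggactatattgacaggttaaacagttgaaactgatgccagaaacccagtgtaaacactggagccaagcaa
Counting back from the start as -1, the Fga matches began at -234 (STAT) and -46 (HNF1), and the Fgb matches at -162 (STAT) and -29 (the shorter HNF1 form). Fgg and Klkb1 held none of these letters, which says nothing about binding of the factors.

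Promoters from the RefSeq table were used for 27 of the 35 members, 28 windows in all, since C8g had a pair. Entries on a single chromosome were left out for the members but not for the whole table. HNF1 is a transcription factor of liver and kidney epithelium that binds many plasma protein genes, and its motif GTTAATNAT was found in 3 of these 28 windows (10.7%), those of Fga, Hc and F13b, and in 0.737% of 32851 promoters in the table. The shorter form GTTAAT was found in 25.0% of member windows and 6.43% of all. STAT factors carry the interleukin 6 signal of the acute phase, and TTCNNNGAA was found in 6 member windows (21.4%), those of C8a, F9, Fga, Fgb, Masp2 and Pros1, and in 7.02% of all. The motifs TGGACTTTG (HNF4), TTGCGCAA (C/EBP) and GGGACTTTC (NF-kB) were in none of the 28 windows and in 0.384%, 0.164% and 0.289% of all. These matches are descriptions, with no test.

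Common and extrinsic pathway genes included the gene with the largest difference from control liver, F7. F7 encodes factor VII, the short-lived protease that joins tissue factor to start clotting. It read 4.55, 4.39 and 4.38 in control livers, 4.69, 4.62, 4.33 and 4.52 in host livers and 2.98, 2.74, 2.67 and 3.004 in neo-livers. The neo-liver arrays were 1 log2 unit or more below every other liver array, with mouse 1 no higher than mouse 4. F7 was 3.01-fold lower than in control liver (-1.59 ± 0.12, adjusted p = 2.7e-07) and 3.23-fold lower than in host liver (-1.69 ± 0.11, adjusted p = 7.7e-08), that is at 33.3% of the control liver level. F2, which encodes prothrombin, fell by 0.73 ± 0.18 against control liver and by 0.84 ± 0.17 against host liver. F13b, the carrier subunit of the fibrin-crosslinking factor XIII, fell by 0.76 ± 0.14 and 0.88 ± 0.13 in the same comparisons. F10, the protease of the prothrombin-cleaving complex, fell by 0.48 ± 0.18 and 0.64 ± 0.17, but its sign against both livers turned after quantile normalization and normexp correction. The F10 call against control liver was lost without any 1 control liver and without neo-liver 2, 3 or 4. F5 encodes the cofactor of factor X and differed by -0.35 ± 0.25 from control liver, which was not called, and by -0.92 ± 0.24 from host liver, which was.

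Intrinsic and contact pathway genes split. Klkb1 encodes plasma prekallikrein, which is activated with factor XII on surfaces and releases bradykinin. Its level was 5.86, 5.79 and 5.71 in control livers, 5.49, 5.93, 5.66 and 5.68 in host livers and 4.53, 4.58, 4.39 and 4.56 in neo-livers. Neo-livers formed a tight group below all other livers, at -1.27 ± 0.14 from control liver (adjusted p = 7.3e-06, limma) and -1.17 ± 0.13 from host liver (adjusted p = 9.6e-06). F9, the X-linked haemophilia B gene, fell by 1.20 ± 0.20 and by 1.14 ± 0.19. F11, the neighbour of Klkb1 on the chromosome, read 3.84, 3.66 and 3.19 in control livers, 4.25, 4.15, 3.54 and 5.23 in host livers and 4.01, 3.46, 3.25 and 4.08 in neo-livers. F11 tissues overlapped, and its difference from control liver was 0.14 ± 0.33 (adjusted p = 0.75). F12, which starts the contact pathway, did not overlap between neo-liver, at 5.85 to 6.30, and control liver, at 6.89 to 6.96, yet its -0.80 ± 0.41 was not called. The main fit shares 1 estimate of spread over the 4 groups. The SD of F12 was 0.19 in neo-liver, 0.04 in control liver and 1.08 in host kidney, where 1 of 4 arrays was above background. A fit of neo-liver and control liver alone, which leaves out host liver and host kidney, called F12 lower. Kng1 encodes kininogen, the bradykinin precursor, and differed by -0.47 ± 0.27 from control liver, not called, and fell by 0.92 ± 0.25 against host liver.

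Anticoagulants fell alongside the procoagulants. Of the 5 members, 4 were lower than in control liver and all 5 lower than in host liver, against 29.8% and 31.5% of all genes. Proz, which encodes the cofactor of the factor Xa inhibitor and lies beside F7 and F10, fell by 1.05 ± 0.34 against control liver. Serpind1, heparin cofactor II, fell by 0.98 ± 0.34, and Serpinc1, antithrombin, by 0.93 ± 0.27. The Serpind1 call was lost without any 1 control liver or without neo-liver 1 or 4, and that of Proz without control liver 1. Proc, protein C, fell by 0.65 ± 0.15. Pros1, the protein S cofactor of protein C that endothelial cells make too, was the exception. It read 2.60, 2.53 and 2.52 in control livers, 3.29, 3.22, 2.82 and 3.05 in host livers and 2.60, 2.44, 2.50 and 2.398 in neo-livers. Host livers were above all control livers (0.54 ± 0.15, adjusted p = 0.021, limma), and neo-livers overlapped the control livers (-0.06 ± 0.15, adjusted p = 0.75). The host liver call of Pros1 was lost when any 1 of the 3 control livers was left out.

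The 7 vitamin K dependent members, which need γ-carboxylation to bind membranes, cut across these groups. Of F2, F7, F9, F10, Proc, Pros1 and Proz, 6 were lower in neo-liver than in control liver, Pros1 being the exception, and all 7 were lower than in host liver, against 29.8% and 31.5% of all genes. Genes of the carboxylation and export machinery were lower too. Ggcx, the γ-carboxylase, read 2.97, 2.64 and 2.66 in control livers and 1.06, 1.57, 1.78 and 1.81 in neo-livers, a fall of 1.20 ± 0.19 (adjusted p = 0.00015). Vkorc1, the warfarin-sensitive reductase that recycles vitamin K, fell by 0.81 ± 0.11, a call lost after quantile normalization and normexp correction, and Lman1, a cargo receptor that carries factors V and VIII out of the endoplasmic reticulum, fell by 1.04 ± 0.14. None of the 3 was called between host liver and control liver.

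Fibrinolysis members encode plasminogen (Plg), its inhibitor α2-antiplasmin (Serpinf2) and the carboxypeptidase TAFI (Cpb2), which protects fibrin from lysis. Cpb2 fell by 1.11 ± 0.27 against control liver and Serpinf2 by 0.53 ± 0.15. Serpinf2 reversed to 0.04 after quantile normalization. Plg differed by -0.68 ± 0.49, not called, although its neo-liver levels of 7.19 to 7.87 were all below the control range of 8.06 to 8.16. As for F12, the fit of the 2 liver groups alone called it lower. The SD of Plg was 0.30 in neo-liver, 0.05 in control liver and 1.29 in host kidney. All 3 were lower in neo-liver than in host liver, by 0.86 to 1.18, where 31.5% of all genes were called lower. The Plg call (adjusted p = 0.046) was lost without any 1 host liver and without neo-liver 2, 3 or 4.

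Lectin pathway genes all fell, 4 of 4 against control liver and against host liver, where 29.8% and 31.5% of all genes were called lower. With the kidney share subtracted, none of the 4 was called lower than in control liver, and Masp1, Masp2 and Mbl1 were called lower than in host liver. Mannose-binding lectins (Mbl1, Mbl2) recognise microbial sugars and activate the proteases Masp1 and Masp2, of which Masp2 cleaves C4 and C2. Masp2 read 5.31, 5.14 and 5.06 in control livers, 5.32, 5.47, 5.19 and 4.91 in host livers and 3.94, 3.72, 3.82 and 3.36 in neo-livers. Neo-livers did not overlap either liver group, at -1.46 ± 0.34 from control liver (adjusted p = 0.0028) and -1.51 ± 0.31 from host liver (adjusted p = 0.0015). Mbl1 read 4.30, 4.27 and 4.18 in control livers, 4.92, 4.77, 4.43 and 5.198 in host livers and 3.30, 3.30, 3.45 and 3.89 in neo-livers. The 3 tissues were apart on every array for Mbl1. Host liver was 0.58 ± 0.20 above control liver (adjusted p = 0.049) and neo-liver 1.34 ± 0.18 below host liver (adjusted p = 7.2e-05) and 0.77 ± 0.20 below control liver. The Mbl1 rise in host liver was lost without any 1 control liver and without host liver 1, 2 or 4. Masp1 fell by 0.87 ± 0.24 and Mbl2 by 0.84 ± 0.28 against control liver, the latter call being lost without control liver 2 or 3 or neo-liver 3 or 4.

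Among convertase genes more were called lower against host liver than against control liver. C2, C3, C4b and Cfb build the enzymes that cleave C3 and C5, and Cfi encodes the protease that inactivates C3b and C4b. All 5 fell against host liver, by 0.38 for C2 to 0.98 for Cfb, where 31.5% of all genes were called lower. Cfb alone was called lower than control liver, against 29.8% of all genes. The calls of C2, C3 and C4b against host liver were lost without host liver 1 or 4 and without neo-liver 2 or 3, and that of Cfi without neo-liver 2. Those of C2 and C3 were lost without host liver 2 or neo-liver 4 too. Cfb read 7.83, 7.86 and 7.89 in control livers, 8.65, 8.08, 8.12 and 8.56 in host livers and 7.65, 7.09, 7.23 and 7.51 in neo-livers. Every host liver was thus above and every neo-liver below the control livers, by 0.49 ± 0.16 (adjusted p = 0.041) and -0.49 ± 0.16 (adjusted p = 0.022). The rise in host liver was lost without host liver 1 or 4 or any 1 control liver, and the fall without any 1 control liver or neo-liver 2 or 3. The fall turned to 0.09 after quantile normalization. C3, the hub of all 3 activation routes, read 10.24, 9.58, 9.66 and 9.67 in neo-livers and 10.29 to 10.37 in control livers, -0.53 ± 0.31, not called. C4b has a near-identical neighbour, C4a, so its probe may read both. C2 and Cfi differed from control liver by -0.08 ± 0.16 and -0.22 ± 0.31, neither called.

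Terminal complement genes moved in different directions, and the 3 chains of C8 were the clearest case. C8a read 3.14, 2.60 and 2.81 in control livers, 5.43, 4.51, 3.98 and 4.51 in host livers and 5.08, 3.57, 3.88 and 3.31 in neo-livers. All host livers and neo-livers were above all control livers, and the mouse 1 arrays were highest in both tissues. C8a was 3.38-fold higher in host liver (1.76 ± 0.39, adjusted p = 0.0061, limma) and 2.16-fold higher in neo-liver (1.11 ± 0.39, adjusted p = 0.029) than in control liver. The host liver rise was called under all 18 alternatives, whereas the neo-liver rise was lost without neo-liver 1, where it was 0.74, without control liver 2 or 3, and in the fit of the 2 groups alone. Host kidney read 2.67 to 3.21 for C8a, below each neo-liver array. C8g, whose chain is linked to that of C8a in the protein, went the other way. It read 8.82, 8.83 and 8.76 in control livers, 8.59, 8.90, 8.48 and 8.63 in host livers and 7.39, 7.32, 7.42 and 7.34 in neo-livers. The 4 neo-livers lay within 0.10 of one another and were 2.70-fold below control liver (-1.43 ± 0.20, adjusted p = 5.7e-05). C8b, the neighbour of C8a, differed by -0.67 ± 0.45, not called.

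Hc is the gene for the first protein of the pore. Only its transcript was measured, and whether these FVB/N mice make the protein was not tested. The Hc transcript separated mouse 1 from the rest. It read 5.53, 5.55 and 5.57 in control livers, 7.40, 5.62, 5.60 and 6.09 in host livers and 6.18, 4.17, 4.47 and 4.44 in neo-livers. Neo-liver 1 was above control liver and the other 3 neo-livers were more than 1 log2 unit below it, so the mean difference of -0.73 ± 0.49 was not called, whereas without neo-liver 1 Hc was called lower, at -1.19. Against host liver Hc fell by 1.36 ± 0.45 (adjusted p = 0.024). It was no longer called there if host liver 1 or any of neo-livers 2, 3 and 4 was left out. C9, which polymerises into the pore, read 2.34, 2.24 and 2.48 in control livers, 3.72, 2.63, 1.09 and 2.92 in host livers and 3.29, 1.502, 1.32 and 1.29 in neo-livers. Host liver 3 was as low as the neo-livers for C9, and neither neo-liver comparison was called for it. Without host liver 3 or without neo-liver 1, C9 was called lower than in host liver.

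Mouse 1 stood high for much of the list. Its host liver was the highest host liver for 20 of 35 members and its neo-liver the highest neo-liver for 27, with 19 members in common. The median member was 0.61, 0.34, 0.03 and 0.38 above the control liver mean in host livers 1 to 4, and -0.21, -0.85, -0.73 and -0.71 from it in neo-livers 1 to 4. A list of 10 acute phase genes, Saa1 and Orm1 among them, had summed linear levels of 7047, 1944, 2168 and 3291 in host livers and 2530, 1012, 1396 and 1509 in neo-livers of mice 1 to 4, against 1297 to 1647 in control livers. The 2 sets of values were both highest in mouse 1, and the part of the acute phase in the members' levels was not tested. Kidney content differed too, being 18.4% in neo-liver 1 and 50.7% in neo-liver 2, the neo-livers with the highest and lowest median member, though it was 17.9% in neo-liver 3, whose median member was -0.73. Without mouse 1, 22 members were lower and 1 higher than in control liver, 29 were lower than in host liver, and 3 were higher in host liver than in control liver. Klkb1 did not follow this layout, host liver 1 being its lowest host liver. For F7 mouse 1 was highest in host liver but not in neo-liver, as the lines by mouse show.

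**Figure D3:**
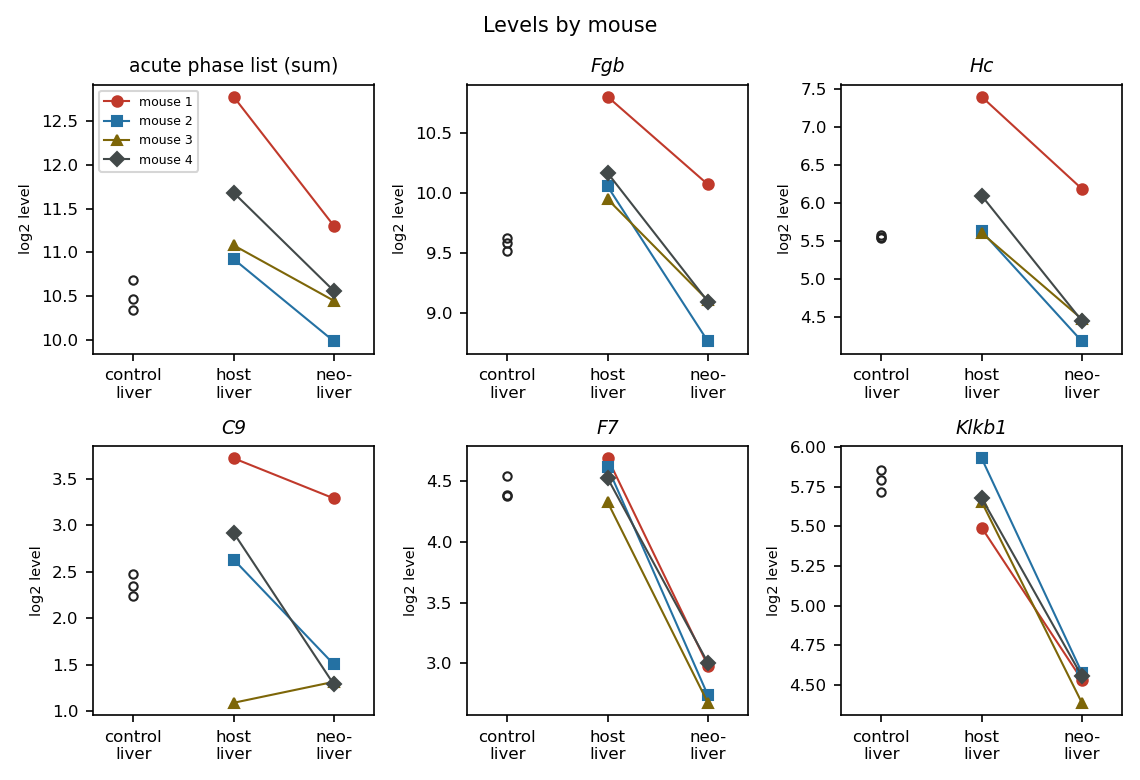
Log2 levels in control liver (open circles, 3 arrays) and in host liver and neo-liver joined by a line for mice 1 to 4, for the summed acute phase list and for Fgb, Hc, C9, F7 and Klkb1. Mouse 1 is highest in host liver and neo-liver for the acute phase sum, Fgb, Hc and C9, whereas the 4 mice lie close together in neo-liver for F7 and Klkb1.

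Spread within a tissue was not alike. The median SD of the members was 0.06 over control livers, 0.28 over host livers, 0.28 over neo-livers and 0.32 over host kidneys. For all genes it was 0.11, 0.30, 0.28 and 0.18 in the same order.

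Against host kidney, the tissue the graft grew in, 34 of the 35 genes were higher in neo-liver and none lower, where 23.2% of all genes were called higher and 29.5% lower. The members' median difference was 6.07 and that of all genes -0.09. Arrays of the 2 tissues did not overlap for 34 members, against 49.4% of all genes. All host kidney arrays, and no others, were run on slide 1, and slide and tissue cannot be told apart here. F2, which was above background on all 4 host kidney arrays, was higher by 11.48 ± 0.17, and Serpinc1, likewise, by 10.30 ± 0.25. C8b, C9 and Masp1 were not well above background on any host kidney array and were at least 499-fold, 187-fold and 36.0-fold higher in neo-liver, with a bound set by the dimmest signal counted as above background. Plg, F7 and F11 were above background on 2 of 4 host kidney arrays and F12 and Hc on 1 of 4, so the sizes of their differences rest in part on values at background. For Plg the difference was 12.99, and 10.37 after normexp correction, and for F12 it was 12.17 and 9.03.

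**Figure D4:**
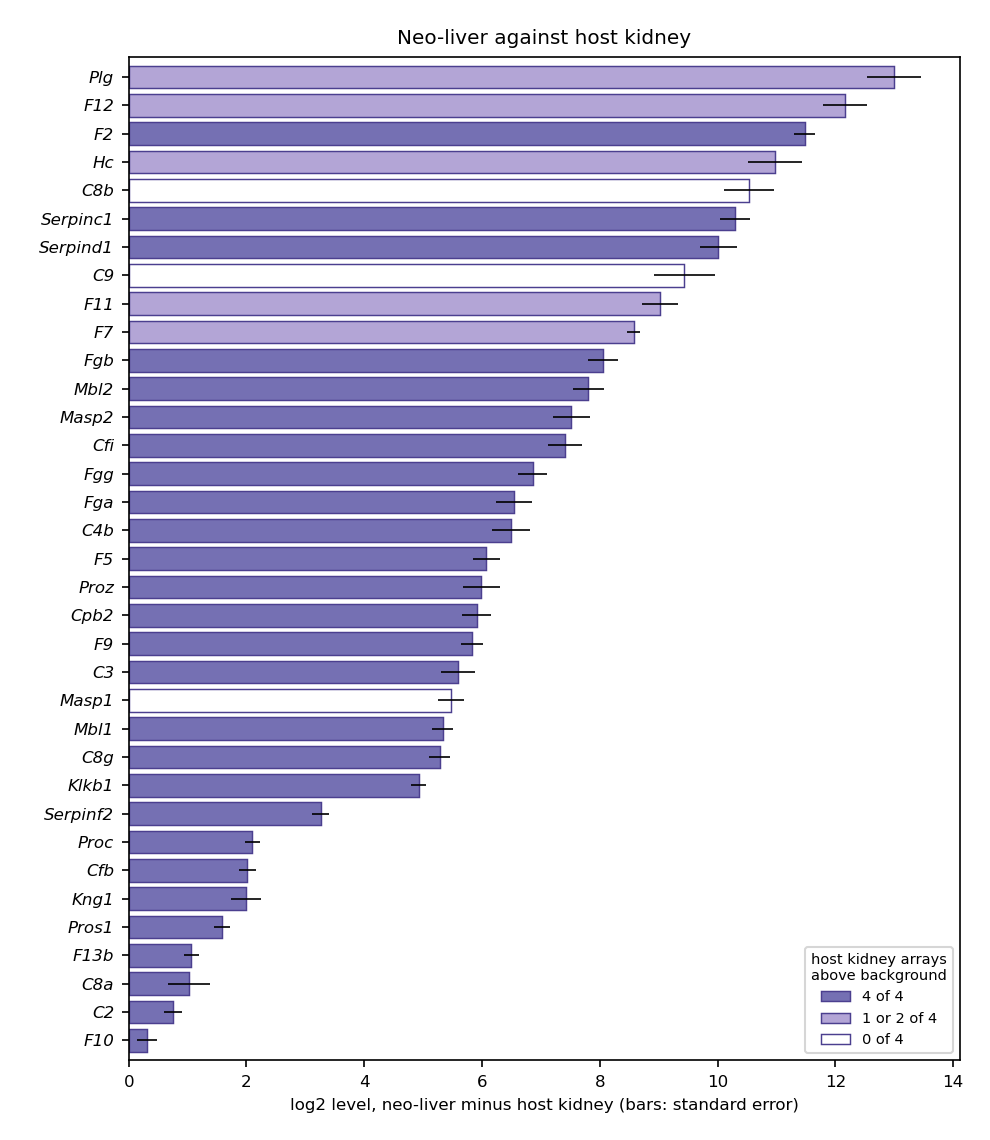
Log2 level in neo-liver minus that in host kidney for the 35 genes, sorted, with standard errors and bar shade for the number of host kidney arrays above background. The differences run from 0.31 for F10 to 12.99 for Plg, which was above background on 2 of 4 host kidney arrays, and the bars of C8b, C9 and Masp1 show measured values where kidney was at background, not bounds.

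Host kidney nevertheless gave signal above background on 4 of 4 arrays for 27 of the members. For 8 of these the difference from neo-liver was under 3: F10, C2, C8a, F13b, Pros1, Kng1, Cfb and Proc. C2 read 4.70, 4.88, 4.95 and 4.42 in host kidneys and 5.78, 5.38, 5.43 and 5.36 in neo-livers, a difference of 0.75 ± 0.15. Cfb read 5.38, 5.39, 5.27 and 5.38 in host kidneys, 2.02 ± 0.15 below neo-liver. Renal cells are known to make C2, factor B, C3 and protein S. C8a was 1.02 ± 0.36 higher in neo-liver, a call lost without neo-liver 1 or host kidney 2 or 3. The other 19, which were F2, F5, F9, Fga, Fgb, Fgg, Proz, Serpinc1, Serpind1, Serpinf2, Klkb1, Cpb2, C3, C4b, C8g, Cfi, Masp2, Mbl1 and Mbl2, differed by 3.26 to 11.48.

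F10 and Kng1 depended on the probe. The brighter F10 probe, used above, read 9.86, 9.41, 9.37 and 9.57 in host kidneys and 10.29, 9.88, 9.66 and 9.63 in neo-livers, 0.31 ± 0.17 apart (adjusted p = 0.13), and with mouse as a block this was called higher. The second F10 probe differed by 9.70 between the same tissues and by -0.89 between neo-liver and control liver. For Kng1, whose pair of probes match different transcripts, neo-liver minus host kidney was 2.00 with the brighter probe and 6.72 with the other. Which probe follows each gene was not tested, and F10 and Kng1 levels in kidney are uncertain here.

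Other genes of the same pathways include receptors, cell surface regulators and enzymes that many cell types make, with some further plasma proteins of liver. Of 59 such genes listed, 53 could be tested, and 15 were higher and 15 lower in neo-liver than in control liver, where 20.4% of all genes were higher and 29.8% lower. Fibrinolysis genes gave 7 higher and 0 lower of 8, other coagulation genes 6 higher and 8 lower of 18, and other complement genes 2 higher and 7 lower of 27. Between host liver and control liver 9 of the 53 were higher and 0 lower, where 13.4% of all genes were higher and 11.2% lower. No test compared these genes with the 35 members.

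The plasminogen activators were among the largest rises. Plau encodes urokinase, which is abundant in kidney tubules. It read 0.14, 1.54, -0.44 and 0.61 in neo-livers and 3.41, 3.44, 2.80 and 3.35 in host kidneys, and was not well above background on any control or host liver array, so that it was at least 28.2-fold higher in neo-liver than in control liver (adjusted p = 3.9e-08, limma). Plat, tissue plasminogen activator, read 0.12, 0.37, 0.09 and 0.37 in neo-livers and was at least 24.1-fold higher than in control liver, where no array was above background. Both were lower in neo-liver than in host kidney, by 2.79 ± 0.36 for Plau and by 1.44 ± 0.31 for Plat. The neo-liver with the highest Plau, that of mouse 2, also had the highest kidney share. With the kidney share subtracted, values taken below the dimmest signal counted as above background were set to that signal. For Plau this applied to every neo-liver, and for Plat to neo-liver 2. The fitted difference from control liver went from 6.24 to 0.90 for Plau and from 5.30 to 2.87 for Plat. Both were called higher, but the Plau value rests wholly, and the Plat value partly, on that set signal. The Plau call is thus not one of a measured level.

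Cfd, factor D of the alternative pathway, which fat cells secrete, read 3.35, 3.07, -2.30 and 5.32 in neo-livers and was not above background in control livers, a rise called at an adjusted p of 0.0024. No size is given, since the neo-livers were so far apart. It also varied in host kidneys, from -2.71 to 3.96. F13a1, the catalytic subunit of factor XIII made by macrophages and platelets, rose by 4.16 ± 0.72 in neo-liver and by 3.22 ± 0.72 in host liver, with 1 of 3 control arrays above background. Itgax, a complement receptor chain of macrophages and dendritic cells, rose by 2.70 ± 0.37. Of 6 recruited macrophage markers, Itgax among them, 5 were higher in neo-liver than in control liver, with summed levels of 31.0 to 45.7 against 19.1 to 21.6, and Gpnmb was at background in control liver. Of 5 platelet markers 3 were higher, with sums of 2.10 to 8.49 against 0.919 to 0.962. The part of these cells in the rises was not tested.

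Among receptors and inhibitors the changes went both ways. F2r, the thrombin receptor, rose by 2.11 ± 0.34, Thbd, thrombomodulin, by 1.53 ± 0.37, Anxa5, the phosphatidylserine-binding anticoagulant annexin, by 2.63 ± 0.35, and Tfpi, tissue factor pathway inhibitor, by 0.92 ± 0.14. Host kidney means for these genes were 2.25 for F2r, 1.79 for Thbd, 3.65 for Anxa5 and 1.22 for Tfpi, against 2.62, 1.00, 5.17 and 1.08 in neo-liver. With the kidney share subtracted, the Thbd rise was no longer called. Cd59a, which blocks assembly of the complement pore on cells, fell by 0.98 ± 0.17. Cd55, which speeds the decay of C3 convertases, and Procr, the endothelial protein C receptor, differed by -0.26 ± 0.23 and 0.53 ± 0.22, neither called. F2rl1 was called higher, but was at background on all liver and neo-liver arrays. F3, tissue factor, differed by 0.70 ± 0.31 and Vwf, von Willebrand factor, by 0.15 ± 0.28, neither called. F8, which liver sinusoidal endothelium makes, fell by 1.14 ± 0.37, a call lost without control liver 2 or 3 and with the kidney share subtracted. Of 8 sinusoidal endothelium markers, F8 included, 5 were lower and 1 higher, with sums of 50.9 to 88.8 in neo-liver and 111 to 119 in control liver. Their part in the F8 fall was not tested.

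Of the 27 other complement genes, the 7 lower than in control liver compare with 29.8% of all genes lower, and 18 were not called. Colec10, a collectin of the lectin pathway, read 3.71, 3.50 and 3.43 in control livers, 3.73, 3.33, 3.54 and 3.21 in host livers and 2.33, 1.61, 1.13 and 0.72 in neo-livers. It fell by 2.10 ± 0.29 against control liver (adjusted p = 6.1e-05) and was not above background in host kidney. Cpn2 and Cpn1, the chains of carboxypeptidase N, which trims anaphylatoxins, fell by 1.45 ± 0.33 and 1.02 ± 0.17, and neither was called with the kidney share subtracted. C1qa, C1qb and C1qc, made by macrophages, differed by -0.05, -0.04 and 0.04 from control liver, with errors of 0.36 to 0.38, and C6 by -0.17 ± 0.28, none of them called.

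**Figure D5:**
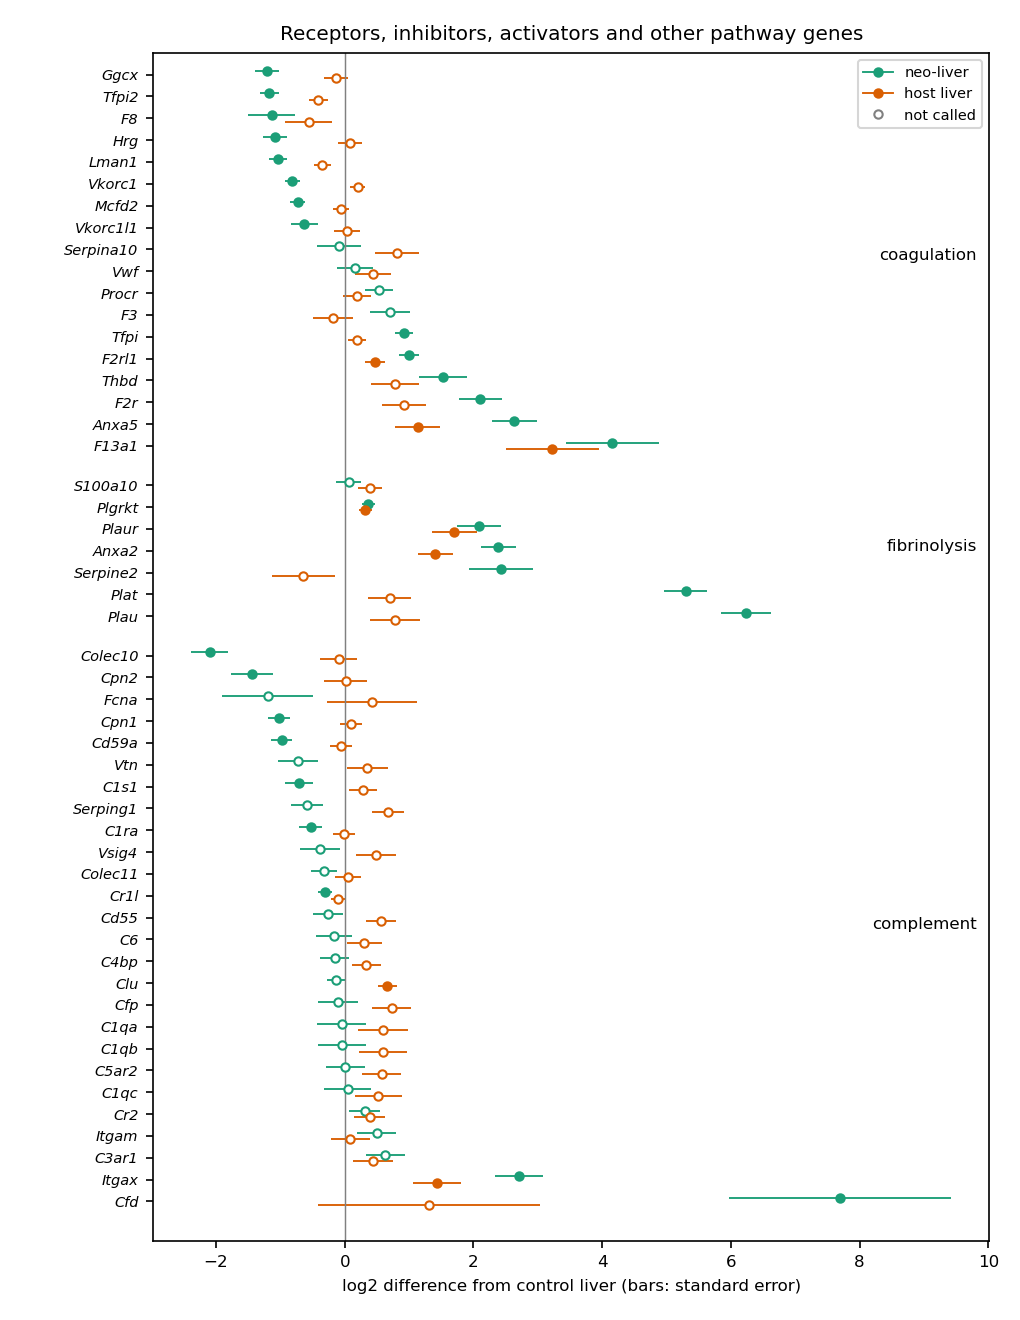
Log2 difference from control liver, with standard errors, of 51 other coagulation, fibrinolysis and complement genes in neo-liver (green) and host liver (orange), sorted within each pathway, with open circles for differences not called. Plau, Plat and Cfd stand far to the right in neo-liver and Colec10 furthest to the left.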

How the data were processed

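RNA of 15 tissue samples was hybridised to 1-colour Agilent arrays of 55681 probes. The deposited files hold intensity values per spot from Agilent Feature Extraction 10.10.1.1, per the submitters' processing notes. The authors' deposited log2 values were within 0.01 of log2 of that intensity minus a constant for 100% of probes on each array and were used as an alternative. Here, log2 of the processed signal minus each array's 75th percentile was used, without control spots and outlier spots. A probe was kept if well above background on every array of at least 1 group. Symbols came from RefSeq accessions (GRCm38.p6), and the brightest kept probe stood for a gene. One limma 3.58.1 fit (R 4.3.3) with a mean for each of 4 groups was used, with Benjamini-Hochberg adjustment over 15617 genes and a threshold of 0.05. It was tested on simulated data. The labels do not say whether each array was a separate animal beyond its number, so p-values measure the spread between these samples, and the number of arrays limits the precision.

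Same-numbered samples of the 3 host tissues deviated together (correlations of 0.18 to 0.58 for 12 pairs of samples, at most 0.08 for other numbers), so the numbers were taken to pair tissues of a mouse. This pairing comes from the data, not from a label. Values by array are printed for the 4 largest called rises and falls per liver comparison, and for further members where single arrays or probes matter. The members, the roles and the lists of other genes and markers were chosen with earlier results of these data known. Kidney content was measured, for 30 kidney markers on the linear scale, as the median position of an array between the control liver mean (0%) and the host kidney mean (100%). To subtract it, that share of the host kidney mean was taken from each neo-liver value and the rest divided by 1 minus the share. Values below the dimmest signal counted as above background were set to that signal. Alternatives changed the normalization, background correction, probe filter, probe choice, samples fitted, blocks and kidney share, and left out each array. An addition made after seeing the data left out the host liver and neo-liver arrays of mouse 1. C7, F2rl2, F2rl3, Serpinb2, Cd46 and C5ar1 were not tested here, and the values of 2 further pathway genes are not reported here, though they enter the counts.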

Additional observations from a re-analysis of the deposited data

Results flagged for a closer look

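Each of the 35 members was checked in the 3 groups of 4 arrays for 1 array far from the other 3, and chance alone flags about 1 in 20 groups. Of 105 such groups, 9 had one. In neo-liver, array 1 stood high for 6 members: Kng1 at 9.85, Cpb2 at 6.69, C2 at 5.78, C3 at 10.24, Hc at 6.18 and C9 at 3.29. Array 4 stood high for Proz, at 2.38. In host kidney, F11 on array 4 stood low at -5.66 and Cfb on array 3 at 5.27. F11 was above background on 2 of the 4 host kidney arrays. Of the 9 flags, 6 thus came from 1 array, that of neo-liver 1, and they are not separate arrays. The acute phase and kidney content values of that array are given above, and their part was not tested.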

How the results depend on the processing

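Of 2660 recomputed values of single members, 2371 kept their direction and side of the threshold, 182 kept the direction and lost the call, 32 gained one and 75 changed sign. Of these 75, 60 were not called on either side, and 51 came with quantile normalization, normexp correction or kidney share removed. The other 15 were called on at least 1 side. They came with quantile normalization and normexp correction, in that order, against control liver for F10 (0.11 and 0.16), Serpinf2 (0.044 and 0.023) and Cfb (0.088 and 0.077), against host liver for F10 (0.13 and 0.19), Fgg (0.083 and 0.066), Serpinc1 (0.025 and 0.0050) and C2 (0.10 and 0.13), and against host kidney for F10 (-0.17, normexp). The cause was not tested.

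Members lower than in control liver numbered 6 (quantile), 9 (normexp) and 4 (kidney share removed), and members higher 0 with only the 2 groups fitted. Members lower than in host liver numbered 9, 12 and 11 in the same order of settings, with 1, F10, higher after normexp. In host liver minus control liver: genes called were 2521 with only 2 groups fitted in place of 3853, and members higher numbered 2 (quantile, normexp, no filter on dim probes, and slide as a random block) or 11 (median centring). In all, 1 member, F10, was lower than in host kidney after normexp. Leaving out single arrays gave 0 to 1 members higher and 14 to 21 lower than control liver, 24 to 33 lower than host liver, 2275 to 4161 genes and 1 to 5 members higher in host liver, and 33 to 34 higher than host kidney.

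With the replicate number as a block, 18 members were lower than control liver, 28 lower than host liver and 35 higher than host kidney, and beyond Plg, C2, C3 and F10 no member's call changed. Signal near background limits members in host kidney, where 8 were not above background on every array.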
